A study of Mus musculus with 6 samples.

Results

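Cytosolic and mitochondrial chaperone genes, with the genes of their partner proteins, were read in mouse T-cell leukemia with and without Hes1. They were chosen by gene symbol: the TRiC subunits Tcp1 and Cct2 to Cct8, the HSP70, HSP90, HSP110, HSP60, HSP10 and small heat shock protein genes, the Dnaja, Dnajb and Dnajc genes, Bag1 to Bag6, Hsf1, Hsf2, Stip1 and Ahsa1. Chaperones of the endoplasmic reticulum named Hspa5, Hsp90b1, Dnajb9, Dnajb11 and Dnajc3 were left out, as were Hspg2 and Hspbap1. The symbol rule still kept a few proteins that work at the endoplasmic reticulum, such as the disulfide reductase gene Dnajc10. It found 82 genes with 153 probes. A gene was tested when a probe was detected (detection p under 0.05) on 3 or more of the 6 arrays, and the brightest such probe stood for the gene. This left 58 of the 82 genes, among 8836 named genes and 11241 features tested in the whole series. Hsp90ab1 and Hsf1 were not analysed here.

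Molecular chaperones bind proteins that are unfolded or newly made and help them fold, assemble or be removed. The ring-shaped chaperonin TRiC folds actin and tubulin in the cytosol. HSP70 proteins, driven by J-domain proteins (DNAJ) and reset by nucleotide exchange factors such as BAG and HSP110 proteins, hold short exposed stretches, and HSP90 with its cochaperones finishes the folding of kinases and receptors. Inside mitochondria, HSP60 with its lid HSP10 and the HSP70 of the matrix do the same work for imported proteins. Many of these genes are induced by heat shock factor HSF1, and growing leukemia cells depend on a large folding capacity.

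The cells were T-ALL, a leukemia of T-cell precursors, from mice. Bone marrow depleted of mature lineages was infected with a retrovirus carrying ΔE-NOTCH1, an activated NOTCH1, and grew as leukemia in lethally irradiated NRG mice, immunodeficient hosts that lack T, B and NK cells of their own and keep myeloid and stromal cells. All 6 samples carried ΔE-NOTCH1, Hes1flox/flox and Rosa26 Cre-ERT2, a tamoxifen-activated recombinase expressed from a locus active in nearly all cells. The 3 WT samples received ethanol and the 3 KO samples 4-hydroxy-tamoxifen, in each case for 36 hours, and in KO the Hes1 gene, which encodes a repressor switched on by NOTCH1, was to be deleted. The protocols describe both cultured cells and secondary recipients dosed with tamoxifen at 5 mg per mouse, so the source of each RNA is not settled. The sample titles call the replicates biological, but whether they came from separate leukemias is not settled either. The p-values therefore measure the spread between these samples, and how much of it is technical is not known. No array combined the drug with intact Hes1, so loss of Hes1, the drug and Cre activity cannot be told apart. No age of the animals is given here.

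Mean raw intensity per probe ran from 703 to 713 on the WT arrays and from 520 to 687 on the KO arrays, with KO replicate 1 the dimmest. Its mean correlation with the other arrays across features was 0.981, against 0.990 to 0.991 for the rest. Hes1 had a log2 intensity of 10.97, 11.15 and 10.82 in WT and of 4.51, 4.44 and 4.66 in KO, where it was detected on 0 arrays. Against the lowest detected signal of each KO array it was at least 53.5-fold lower in KO (adjusted p 1.00e-06 in limma). Of 11 T-lineage markers, 7 were detected on all arrays, among them Cd3e, Cd3d and Cd3g, while Cd5 and Cd8a were detected on no array. The summed signal of the 10 T-lineage markers with a probe was 86890 to 94460 intensity units in WT and 87830 to 96440 in KO. Of 10 myeloid markers 0 passed the detection rule, and 8, among them Lyz2, Itgam and Adgre1, were detected on no array. The summed myeloid signal, mostly of undetected probes, was 252.9 to 257.2 intensity units in WT and 269.3 to 301.5 in KO. That of 7 stromal and endothelial markers, with Col1a1 and Dcn detected on no array, was 776.6 to 949.7 and 1019 to 1353. Of these only Pecam1 was detected on all arrays, with a mean log2 intensity of 9.40 in WT and 9.93 in KO. Among the others, Cdh5, Kdr and Col3a1 had lower and Col1a1, Col1a2 and Dcn higher values in KO. Of the other lists, 1 of 6 B-lineage, 0 of 3 NK and 1 of 6 erythroid markers were tested. In bulk RNA, fewer cells of a type and less RNA per cell cannot be told apart.

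Heat shock genes are best known for the heat shock element, the site that heat shock factors bind. Promoter windows from RefSeq (GRCm38.p6), 250 bases before to 50 after a gene's start, were on hand for 68 of the 82 genes. The windows below were chosen because 3 of them hold the complete element and belong to genes measured here, and because the fourth belongs to Hspa1b, a heat-inducible HSP70 gene that the arrays did not detect. Each is printed 5′ to 3′ along the gene. Capitals mark matches to the heat shock element, of 3 units in the first 3 windows and of 2 units in Hspa1b. In Hspe1 the capitals cover 2 overlapping matches of 3 units.
Hspe1, chr1:55087898-55088197, plus strand: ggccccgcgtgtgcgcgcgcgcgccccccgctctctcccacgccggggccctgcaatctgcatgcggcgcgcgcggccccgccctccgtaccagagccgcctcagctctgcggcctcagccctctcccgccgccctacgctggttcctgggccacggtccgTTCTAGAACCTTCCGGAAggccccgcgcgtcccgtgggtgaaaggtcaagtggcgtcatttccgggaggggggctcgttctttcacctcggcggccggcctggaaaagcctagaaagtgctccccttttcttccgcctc
Hsph1, chr5:149636266-149636565, minus strand: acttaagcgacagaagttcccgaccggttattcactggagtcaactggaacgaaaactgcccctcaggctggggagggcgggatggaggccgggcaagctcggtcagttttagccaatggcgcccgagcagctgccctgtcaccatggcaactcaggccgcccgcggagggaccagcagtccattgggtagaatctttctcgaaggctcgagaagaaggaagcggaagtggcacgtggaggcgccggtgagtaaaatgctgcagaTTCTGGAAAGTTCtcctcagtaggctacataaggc
Dnajb6, chr5:29735648-29735947, plus strand: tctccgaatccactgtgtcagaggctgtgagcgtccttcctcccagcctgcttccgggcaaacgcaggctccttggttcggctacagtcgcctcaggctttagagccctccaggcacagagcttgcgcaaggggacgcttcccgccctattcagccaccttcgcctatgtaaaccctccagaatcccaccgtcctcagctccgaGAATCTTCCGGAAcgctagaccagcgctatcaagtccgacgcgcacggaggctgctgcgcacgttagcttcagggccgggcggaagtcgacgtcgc
Hspa1b, chr17:34959189-34959488, minus strand: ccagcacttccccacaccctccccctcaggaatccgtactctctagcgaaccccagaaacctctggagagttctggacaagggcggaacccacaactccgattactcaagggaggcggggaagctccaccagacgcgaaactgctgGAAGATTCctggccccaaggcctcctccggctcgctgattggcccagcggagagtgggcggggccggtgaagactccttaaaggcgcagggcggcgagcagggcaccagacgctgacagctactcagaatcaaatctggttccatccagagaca

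Hspe1 and Hspd1 lie head to head. An Hspd1 window on the minus strand, chr1:55087883-55088182, shares 285 bases with the Hspe1 window. The other Hspd1 window, chr1:55088194-55088493, shares 4 bases with it and holds 0 heat shock elements of either length. Both matches in the Hspe1 window overlap, spanning bases -89 to -77 and -84 to -72 from its start. The complete element was searched as GAANNTTCNNGAA or TTCNNGAANNTTC, which cover both strands. It was present in 6 of 87 chaperone windows (6.90%), in 4 genes, and in 198 of 32851 windows of all genes (0.603%). These 6 are not separate sites. Dnajb6 and Hsph1 each entered with overlapping windows, and the Hspd1 and Hspe1 windows share their matches. Shares of windows, here and below, can thus count 1 site more than once. The shorter pattern, GAANNTTC or TTCNNGAA, lies within every complete match, and was present in 25.3% of chaperone windows and 15.1% of all windows.

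Sites of the kind that HES proteins bind were searched in the same windows on both strands, with patterns of which none contains another but which may share bases where they adjoin. The class C site, CACGCG, was present in 16.1% of chaperone windows and 9.27% of all windows, and the E box CACGTG in 8.05% and 7.15%. The N box, CACNAG, was present in 31.0% and 42.5%. The Hspe1 window has 1 class C match. A match is only a run of letters, and no factor's binding was measured.

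The comparison of KO with WT asked whether chaperone genes change when Hes1 is deleted. None of the 58 passed limma's test at an adjusted p of 0.05 (0), where 0.0623% of all features passed, and their adjusted p ran from 0.473 to 0.999. At an unadjusted p under 0.05, 2 measured higher in KO, Dnajb2 and Hspa12b, or 3.45% of the members against 5% of all features, and 0 measured lower, against 4.27% of all features. Hspa12b met the detection rule through KO, the group where it was higher, and with detection p under 0.01 on all arrays Dnajb2 alone remained, 1 member beside 4.82% of all features. Their median change, KO minus WT, was -0.04 on the log2 scale, beside 0.0026 for all features. The median absolute change was 0.106, beside 0.137 for all features. The members were also brighter, with a median log2 intensity of 9.975, beside 8.696 for all features. The part of brightness in their smaller changes and narrower intervals was not tested.

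**Figure D1:**
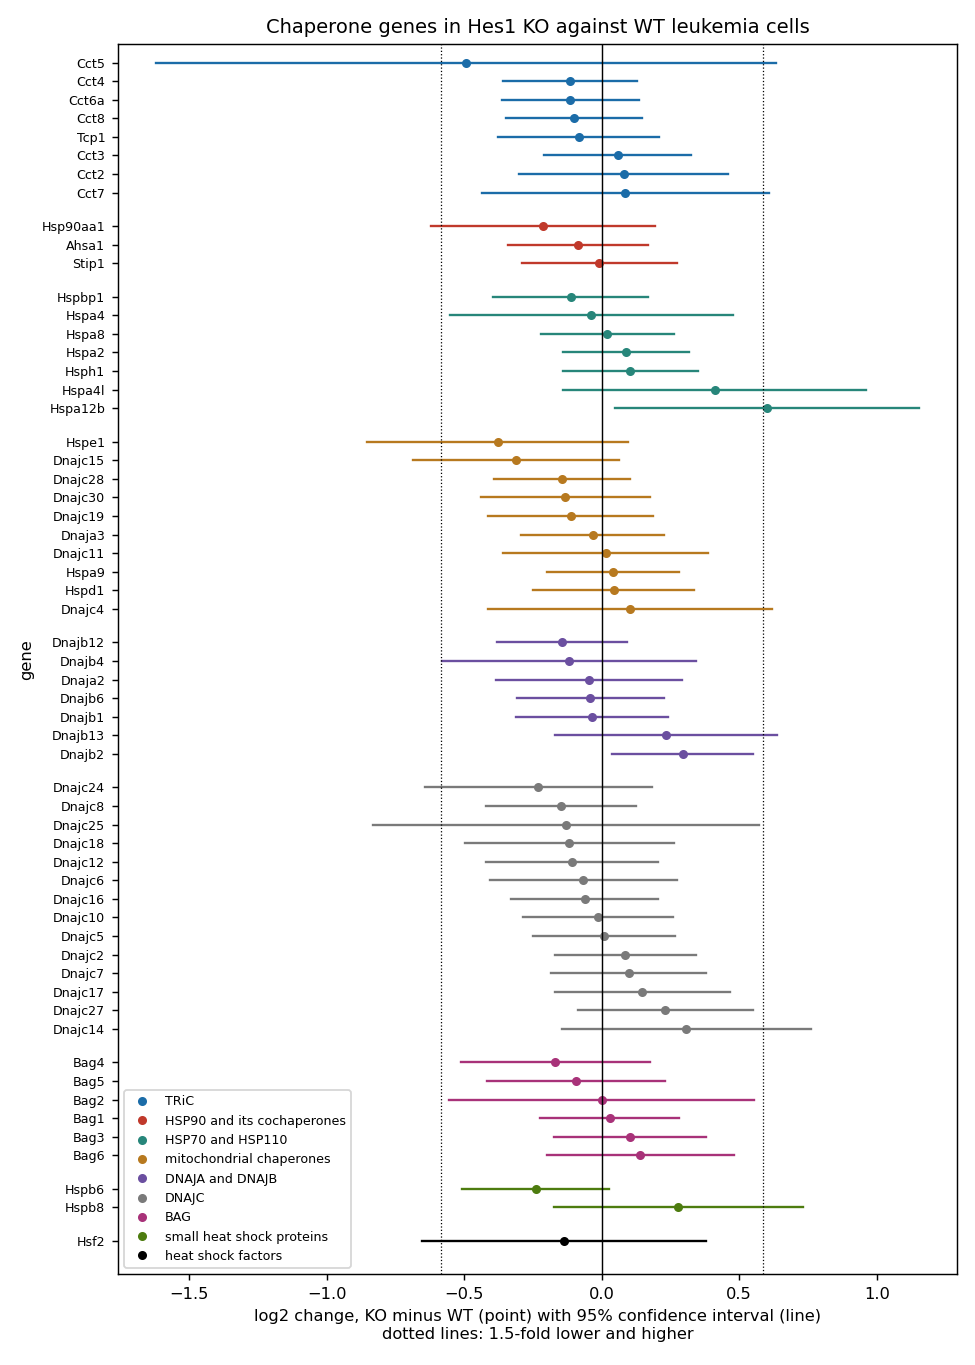
Log2 change from WT to KO (x axis) for each of the 58 chaperone genes tested (y axis, grouped and coloured by role), as a point with its 95% confidence interval from limma. The intervals of Dnajb2 and Hspa12b do not reach 0, and those of Cct5 and Hspa12b extend furthest from it.

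The intervals show how large a change these arrays could have missed. For 44 of 58 members (75.9%) the 95% confidence interval of the change lay inside 1.5-fold in both directions, beside 64.9% of all features. For 56 it lay inside 2-fold, and the exceptions were Cct5 and Hspa12b. These intervals are not adjusted for the number of genes. The standard error of a member's change ran from 0.099 to 0.48 on the log2 scale, with a median of 0.13, beside 0.1435 for all features. Changes of dim members depended on the background correction: of 39 members compared, 11 differed by over 1.5 times without it, and 11 of these 11 were then smaller. Among them were Hspa12b (0.60 with and 0.18 without), Hspa4l (0.41 and 0.16), Cct5 (-0.49 and -0.14), Cct2 (0.08 and 0.026) and Cct7 (0.09 and 0.031).

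Signs were nearly balanced. Of the 58 members, 33 had lower and 25 higher values in KO, and 49.5% of all features had lower values. When arrays were scaled by their medians instead, 48 were lower and 10 higher, but there the median of all features was itself -0.11 and the median of the members -0.16. Of 39 members followed under the alternatives, Cct2, Cct3, Hspa8, Hspa9, Hspd1, Hsph1 and Bag3 were below 0 under that scaling. Their changes below are above 0. So are those of Hspa2 and Bag1, which were not among the 39 and also fell below 0. At least 1.25-fold lower were 2 members, Cct5 and Hspe1, where 6.77% of all features were, and at least 1.25-fold higher were 2, Hspa12b and Hspa4l, where 8.59% were. Cct5 met the detection rule through WT and Hspa12b through KO, each the group where it was higher. The KO values lay wholly below the WT values in 4 members (6.90%), Cct8, Dnajb12, Dnajc28 and Hspb6, and wholly above in 2 (3.45%), Dnajb2 and Hspa2. Over all features these shares were 7.69% and 8.49%.

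**Figure D2:**
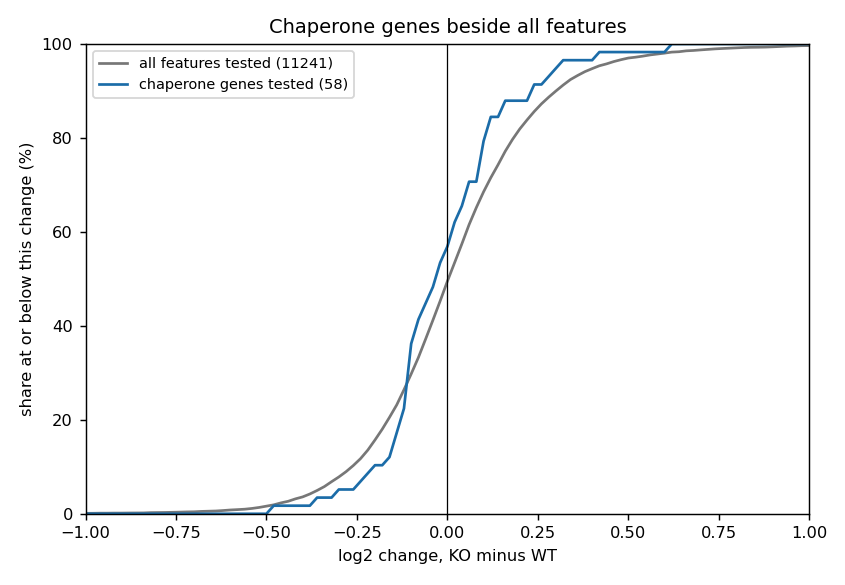
Share of genes at or below each log2 change from WT to KO (x axis), in percent (y axis), for the 58 chaperone genes and for all 11241 features tested. The curve of the chaperone genes is the steeper near 0, with 33 of 58 genes below 0.

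Single arrays moved the counts. Without KO replicate 3, 4 members measured lower and 4 higher at an unadjusted p under 0.05, beside 4.23% and 4.78% of all features. The lower were Cct5, Dnajb4, Dnajc15 and Hsp90aa1, and the higher Dnajb2, Dnajc14, Hspa12b and Hspa4l. Without KO replicate 1, the dimmest array, 0 members measured lower and 0 higher, beside 4.28% and 5.11% of all features. There 29 values were lower and 29 higher, and the median change was -0.0024. Without WT replicate 1, 2 measured lower, Dnajc24 and Hspe1, and 0 higher, beside 3.51% and 4.23% of all features. No member passed the adjusted test without any 1 array (0 in all 6 fits), and the smallest adjusted p was 0.400.

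TRiC is built from different subunits that assemble into stacked rings. Of the 10 TRiC genes on the arrays 8 were tested, and Cct6b and Cct8l1 were detected on no array. In KO 5 had lower and 3 higher values (7 and 1 with median scaling, 4 and 4 with array weights), with a median change of -0.09 (0.01 with array weights). Cct8 was the subunit whose groups did not overlap, with log2 intensities of 12.42, 12.38 and 12.41 in WT and 12.38, 12.18 and 12.35 in KO. WT replicate 2 and KO replicate 1 nearly touch. Its change was -0.10 ± 0.11 (SE, adjusted p 0.768 in limma).

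The changes of Cct4, Cct6a and Tcp1 were -0.11, -0.11 and -0.08, and those of Cct3, Cct2 and Cct7 0.06, 0.08 and 0.09, with SEs from 0.10 to 0.22. A second Cct3 probe gave -0.12. Cct5 varied most of all members. It read 5.95, 6.66 and 5.63 in WT and 4.88, 5.15 and 6.72 in KO, so that KO replicate 3 was the highest of the 6 and KO replicate 1 the lowest. Detected on 3 WT arrays and 1 KO array, it met the detection rule through WT, the group where it was higher. Cct5 measured -0.49 ± 0.48 (SE, adjusted p 0.757 in limma), -1.06 without KO replicate 3 and 0.20 with array weights.

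Proteins that hand substrates to TRiC, and those it folds, were read beside it. Of 11 prefoldin and phosducin-like genes tested, 6 had lower and 5 higher values (9 and 2 with median scaling), with a median of -0.05. At an unadjusted p under 0.05, 0 measured lower and 0 higher, beside 4.27% and 5% of all features. The prefoldin subunit gene Pfdn4 measured -0.28 ± 0.13 (SE, log2), with KO wholly below WT, while Pfdn1 measured 0.32 ± 0.21 and Vbp1 0.18 ± 0.14. Pfdn1 was dim, with means of 5.32 in WT and 5.64 in KO. Detected on 1 WT array and 3 KO arrays, it met the detection rule through KO, the group where it was higher. All 6 actin and tubulin genes tested had lower values (5 of 6 with cyclic loess, 4 of 6 with array weights), with a median of -0.10. Again 0 had an unadjusted p under 0.05, beside the same shares of all features. Among them Tuba1a measured -0.25 ± 0.175, Tubb5 -0.15 ± 0.11 and Tubb4b -0.11 ± 0.11. The adjusted p of these genes was at least 0.580 in limma.

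HSP90 was represented by the inducible isoform gene Hsp90aa1 and the cochaperone genes Stip1, which links HSP70 to HSP90, and Ahsa1, which speeds the HSP90 ATPase. Hsp90aa1 read 10.28, 10.16 and 10.00 in WT and 9.63, 9.91 and 10.26 in KO. KO replicates 1 and 2 lay below all WT arrays and KO replicate 3 above WT replicate 2, and the change was -0.21 ± 0.17 (SE, adjusted p 0.721 in limma). A second, dimmer Hsp90aa1 probe gave 0.20 ± 0.17, so the probes of this gene disagree in sign. Ahsa1 measured -0.09 ± 0.11 and Stip1 -0.01 ± 0.12.

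Among 15 further cochaperone genes of HSP90 and HSP70, 9 had higher and 6 lower values (4 and 11 with median scaling), with a median of 0.03. Of these, 1 measured higher and 0 lower at an unadjusted p under 0.05, beside 5% and 4.27% of all features. This 1 was Unc45a, which encodes a cochaperone that folds myosin. It read 10.22, 10.26 and 10.15 in WT and 10.55, 10.48 and 10.43 in KO, without overlap, a change of 0.28 ± 0.10 (SE, adjusted p 0.471 in limma). The HSP90-binding immunophilin gene Fkbp5 measured 0.15 ± 0.10, also without overlap, and Stub1, the ubiquitin ligase CHIP, -0.24 ± 0.18.

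Of 13 HSP70 and HSP110 genes on the arrays 7 were tested. Hspa8, the constitutive HSC70, had 14.60, 14.76 and 14.61 in WT and 14.63, 14.68 and 14.72 in KO. The KO values lay within the WT range, and the change was 0.02 ± 0.10 (SE), with a 95% confidence interval from -0.22 to 0.26. Its other probes gave -0.19 ± 0.25 and -0.34 ± 0.21. The heat-inducible Hspa1a and Hspa1b were detected on no array by any of their 3 and 2 probes, in WT or KO. They are near-identical copies whose probes may not tell them apart.

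Hspa12b, a divergent HSP70 family member known from endothelium, had a change of 0.60 ± 0.24 (SE, log2), with an unadjusted p of 0.036 and an adjusted p of 0.492 in limma. It read 4.79, 5.20 and 5.45 in WT and 6.07, 5.86 and 5.32 in KO. KO replicate 3 lay below WT replicate 3, so the groups overlap, and the probe was detected on 1 WT array and all 3 KO arrays. The change was 0.27 with array weights, and 0.42 to 0.82 when single arrays were left out. Pecam1, an endothelial marker also carried by leukocytes, measured 0.53 higher in KO (unadjusted p 0.0127 in limma). Of the other endothelial markers, Cdh5 was detected on 1 WT and 0 KO arrays, and Kdr on 2 WT arrays and 1 KO array. The part of such cells in the Hspa12b value was not tested.

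The HSP110 genes are exchange factors of HSP70. Hspa4l measured 0.41 ± 0.24, Hsph1 0.10 ± 0.11 and Hspa4 -0.04 ± 0.22 (SE, log2). Hspa4l read 6.04, 6.45 and 5.75 in WT and 6.85, 6.51 and 6.11 in KO, with KO replicate 3 below WT replicate 2. Another Hspa4l probe, detected on 2 arrays and so short of the detection rule, gave -0.42, opposite in sign. Hspa2, an HSP70 known from testis, read 9.25, 9.18 and 9.18 in WT and 9.28, 9.26 and 9.34 in KO. These groups did not overlap, but the change was 0.09 ± 0.10, and another probe gave 0.01. Hspbp1, which encodes an HSP70 inhibitor, measured -0.11 ± 0.12. In all, 5 of 7 tested HSP70 and HSP110 genes had higher values, but 2 of 7 with median scaling, and their median change was 0.09.

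**Figure D3:**
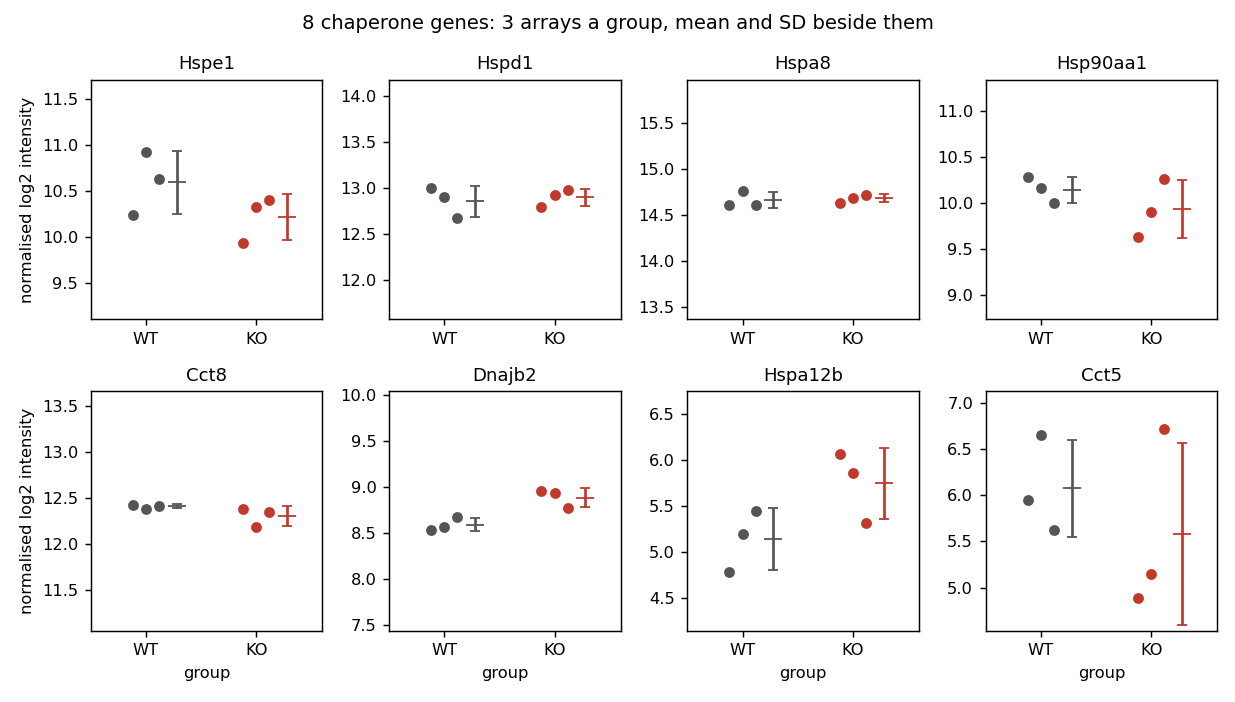
Normalised log2 intensity (y axis) of 8 chaperone genes on the 3 WT and 3 KO arrays (points), with the mean and SD of each group beside them; every panel spans the same range of log2 units. Dnajb2 has no overlap between the groups, Hspa12b and Hspe1 overlap, and Cct5 varies by more than the difference between its groups.

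Mitochondrial chaperones had 6 lower and 4 higher values among 10 tested (10 and 0 with median scaling), with a median change of -0.07. Hspe1, the HSP10 lid, read 10.24, 10.92 and 10.63 in WT and 9.93, 10.32 and 10.41 in KO. Of the KO arrays only replicate 1 lay below all WT arrays. The change was -0.38 ± 0.20 (SE, adjusted p 0.619 in limma), and ran from -0.56 without WT replicate 1 to -0.21 without WT replicate 2, with -0.23 without KO replicate 1. Hspd1, the HSP60 ring with a promoter window that overlaps that of Hspe1, read 13.00, 12.90 and 12.67 in WT and 12.80, 12.92 and 12.98 in KO. Here the groups lay over each other, with a change of 0.04 ± 0.13. The second Hspd1 probe gave -0.38 ± 0.31, close to the change of Hspe1, and the difference between the pair was not tested.

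Dnajc15, a J protein of the inner membrane, read 10.90, 11.06 and 11.24 in WT and 10.48, 10.80 and 10.99 in KO. KO replicates 1 and 2 lay below every WT array and KO replicate 3 did not, and the change was -0.31 ± 0.16 (SE, adjusted p 0.611 in limma), or -0.17 without KO replicate 1. Its relative Dnajc19, part of the motor that pulls proteins into the matrix, measured -0.11 ± 0.13, with -0.17 and -0.18 on its other probes. Dnajc28 measured -0.14 ± 0.11, without overlap, and Dnajc30 -0.13 ± 0.13. Hspa9, the HSP70 of the matrix, measured 0.04 ± 0.10, and its J-protein partner gene Dnaja3 -0.03 ± 0.11. Second passing probes gave the opposite sign in both, at -0.04 for Hspa9 and 0.18 for Dnaja3.

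Of 11 other genes for mitochondrial chaperones and proteases, 7 had lower and 4 higher values, with a median of -0.07. At an unadjusted p under 0.05, 1 measured lower and 0 higher, beside 4.27% and 5% of all features. This 1 was Pam16, which binds the Dnajc19 protein in the import motor. It read 6.34, 6.68 and 6.37 in WT and 5.56, 6.03 and 6.09 in KO, wholly lower in KO, a change of -0.57 ± 0.175 (SE, adjusted p 0.380 in limma). Hscb, a J protein of iron-sulfur cluster assembly, measured -0.53 ± 0.24, and the disaggregase gene Clpb 0.24 ± 0.16. Hscb was dim, with means of 5.52 in WT and 4.99 in KO, and was detected on 2 WT arrays and 1 KO array. Pam16, with means of 6.46 in WT and 5.89 in KO, and Clpb, with 5.61 and 5.85, were also dim. The changes of these genes without background correction are not given here.

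J-domain proteins choose the clients of HSP70. Of the Dnaja and Dnajb genes outside mitochondria, 7 of 13 were tested, 5 with lower and 2 with higher values and a median of -0.04. Dnajb2, which encodes a J protein that also binds ubiquitin chains, had the smallest p of all 58 members. It read 8.54, 8.57 and 8.67 in WT and 8.96, 8.94 and 8.77 in KO. All KO arrays lay above all WT arrays, a 1.23-fold difference of 0.29 ± 0.11 (SE, log2), with an unadjusted p of 0.029 and an adjusted p of 0.473 in limma. The change was 0.15 with median scaling, 0.21 with array weights, and 0.26 to 0.35 when single arrays were left out. With median scaling, array weights or the replicate block, its unadjusted p in limma was not under 0.05. The same held when WT replicate 1 or 2, or KO replicate 1 or 2, was left out.

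Dnajb12, a membrane J protein, differed the other way without overlap, at 8.28, 8.29 and 8.22 in WT and 8.07, 8.20 and 8.09 in KO. Its change was -0.14 ± 0.10. Dnajb1, the main HSP40 induced by heat, read 12.75, 12.72 and 12.74 in WT and 12.52, 12.81 and 12.79 in KO. Its KO arrays lay on both sides of WT, and its change was -0.03 ± 0.12. The aggregation suppressor gene Dnajb6, whose window is printed above, measured -0.04 ± 0.11, and its 3 other probes gave values from -0.15 to 0.01.

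The detection rule set the edge of this group. Just inside it, each detected on 3 arrays, were Dnajb13, Dnajb4, Dnajc14 and Hspb8, with changes of 0.23, -0.12, 0.31 and 0.28 and SEs from 0.17 to 0.20. Without background correction these changes were 0.066, -0.034, 0.089 and 0.080. Dnajb13, Dnajc14 and Hspb8 were detected on 1 WT array and 2 KO arrays each, and Dnajb4 on 2 and 1. Just outside it, each detected on 2 arrays, were Dnaja1, a major HSP70 partner, and Dnajc1, with differences of -0.08 and 0.06. Of the 24 genes not tested, 19 were detected on no array. Of the 58 tested, 51 were detected on all 6 arrays, and 7 on 3 to 5.

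The Dnajc genes carry a J domain on otherwise unlike proteins. Of 18 outside mitochondria, 14 were tested, 8 with lower and 6 with higher values (11 and 3 with median scaling) and a median of -0.04. At an unadjusted p under 0.05, 0 measured lower and 0 higher, beside 4.27% and 5% of all features. Dnajc27, a small GTPase with a J domain, measured 0.23 ± 0.14 (SE, log2), and 0.14 on a second probe. Dnajc24, which acts in diphthamide synthesis, measured -0.23 ± 0.18, and the splicing-associated Dnajc8 -0.15 ± 0.12 and -0.21 on its 2 probes. Dnajc2, which acts at the ribosome, measured 0.09, Dnajc7, which binds HSP70 and HSP90, 0.10, the clathrin-uncoating auxilin gene Dnajc6 -0.07, and the synaptic chaperone gene Dnajc5 0.0080, with SEs from 0.11 to 0.15. Second passing probes gave -0.13 for Dnajc2, opposite in sign, -0.17 for Dnajc6 and 0.18 for Dnajc5.

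**Figure D4:**
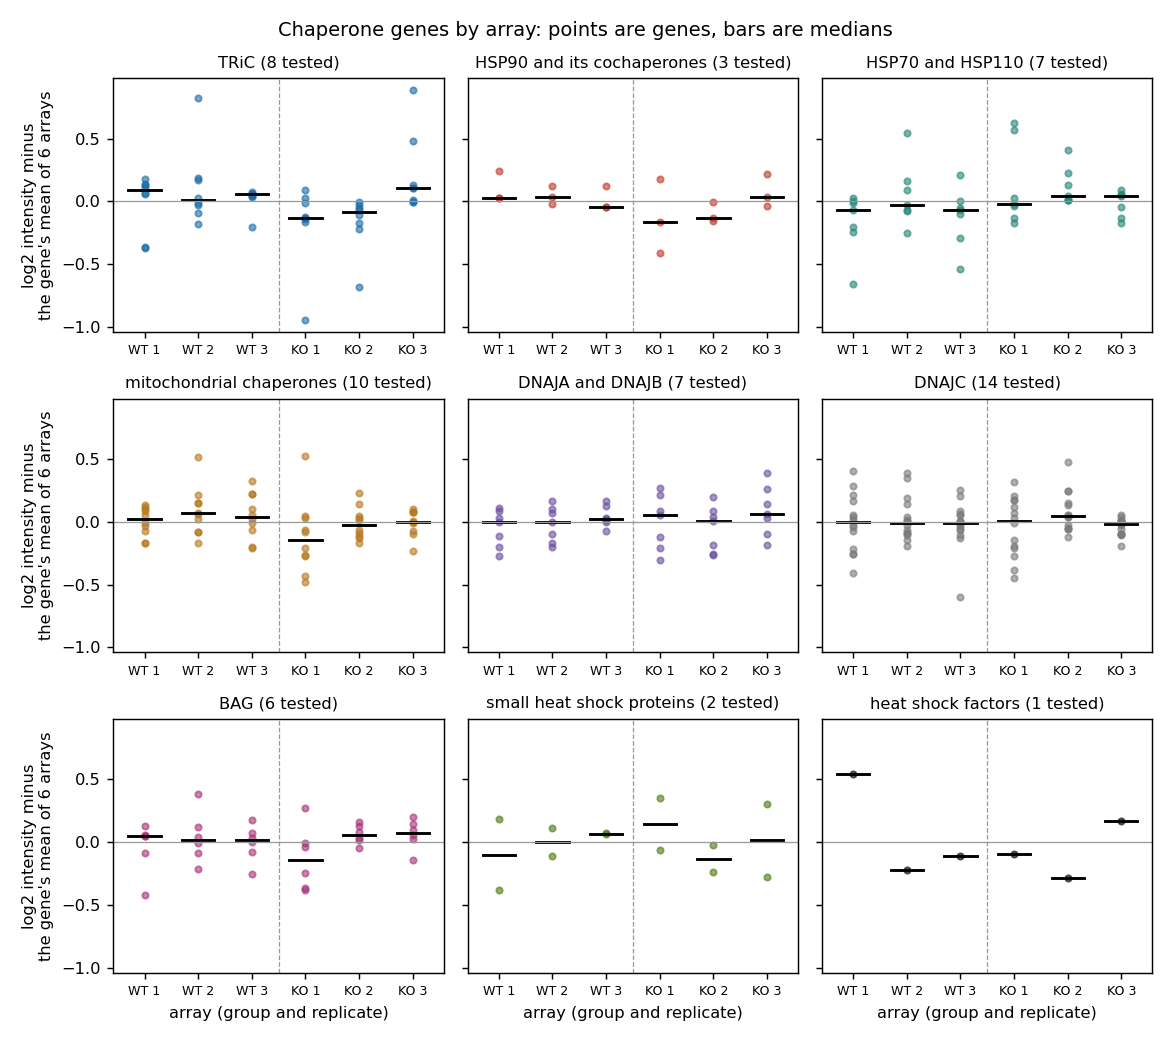
Log2 intensity of each tested chaperone gene minus its own mean over the 6 arrays (y axis) by array (x axis), in a panel per role; points are genes and black bars medians. In the panels of TRiC, HSP90, mitochondrial chaperones and BAG genes the median is lowest on KO replicate 1.

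KO replicate 1, the dimmest array, had the lowest median in several roles. Relative to each gene's mean over the 6 arrays, the median of the TRiC genes was 0.09, 0.01 and 0.06 in WT and -0.13, -0.09 and 0.11 in KO. That of mitochondrial chaperones was 0.02, 0.07 and 0.04 in WT and -0.14, -0.03 and 0.00074 in KO. KO replicate 3 thus lay above WT for TRiC while the other KO arrays lay below it. Over all 58 members the values were 0.02, 0.01 and 0.02 in WT and -0.06, 0.01 and 0.02 in KO, and over all features they ran from -0.01 on KO replicate 1 to 0.0045 on KO replicate 3. The part of array brightness in these differences was not tested.

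All 6 Bag genes were tested, with 4 higher and 2 lower values (1 and 5 with median scaling), a median of 0.01 and, in 6 of 6, an interval inside 1.5-fold. Bag3, a heat-induced partner of small heat shock proteins, read 11.88, 11.61 and 11.82 in WT and 11.79, 11.95 and 11.88 in KO, which overlap, a change of 0.10 ± 0.12 (SE). Bag1 measured 0.03 ± 0.11 and Bag6, which guards proteins bound for membranes, 0.14 ± 0.15. Bag4 measured -0.17 ± 0.15 and Bag5 -0.09 ± 0.14.

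Small heat shock proteins bind unfolded chains without ATP. Of 8 such genes 2 were tested. Hspb6 read 10.10, 10.03 and 9.98 in WT and 9.85, 9.89 and 9.64 in KO, wholly lower in KO, a change of -0.24 ± 0.11 (SE, adjusted p 0.583 in limma). Hspb8, which works with BAG3, measured 0.28 ± 0.19 near the detection limit. Hspb1, the best-known member, was detected on 1 array. The transcription factor gene Hsf2 measured -0.14 ± 0.22, and -0.35 on a second probe.

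Of the genes whose windows hold the complete heat shock element, Hspe1 and Dnajb6 had lower values, at -0.38 and -0.04, and Hsph1 and Hspd1 higher ones, at 0.10 and 0.04. With median scaling Hsph1 and Hspd1 were also below 0, at -0.014 and -0.091, and the second Hspd1 probe was at -0.38. Of 7 tested HSF1 target genes that are not chaperones by the rule, 5 had higher and 2 lower values (4 and 3 with median scaling), with a median of 0.13. Of these 7, 1 measured higher and 0 lower at an unadjusted p under 0.05, beside 5% and 4.27% of all features. This 1 was Jun, a transcription factor gene that many other stimuli induce, at 0.47 ± 0.14 (SE, adjusted p 0.373 in limma). Mrpl18 measured -0.23 ± 0.12 and Gadd45b 0.19 ± 0.16. Chordc1, Fkbp4 and Cacybp stand in this list and in that of the cochaperones.

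**Figure D5:**
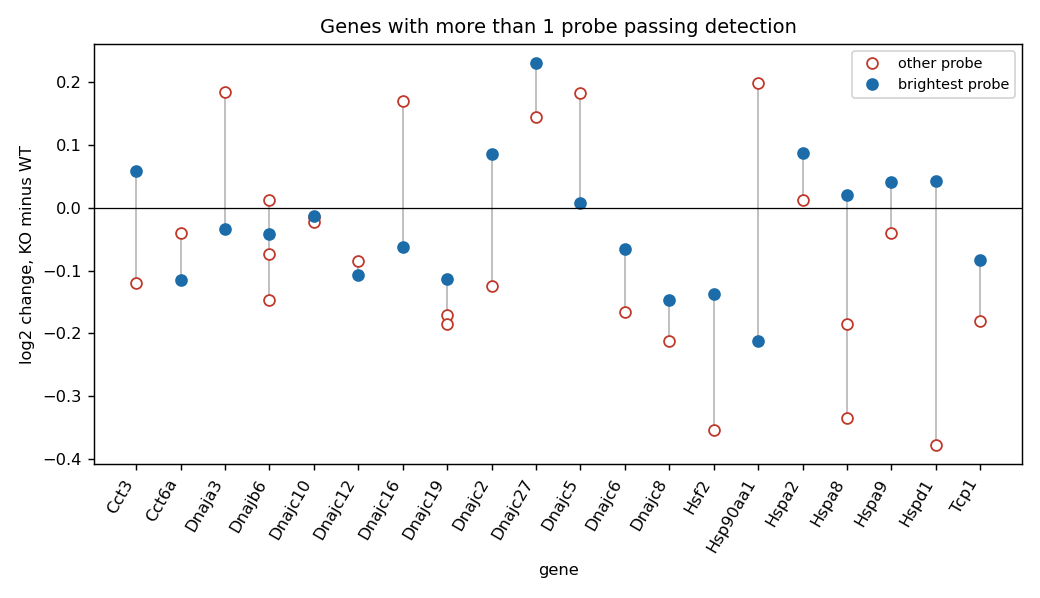
Log2 change from WT to KO (y axis) for every probe that passed detection, for the 20 chaperone genes with more than 1 such probe (x axis); filled points are the brightest probes, used for the gene, and open points the others. In 9 of the 20 genes the probes fall on both sides of 0, among them Hspd1, Hspa8 and Hsp90aa1.

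Of 20 genes with more than 1 passing probe, the probes had the same sign in 11 and opposite signs in 9. Dnajb2 and Hspa12b each had 1 passing probe, so this check was not on hand for them. With each of the 83 passing probes as a feature of its own, 2 measured higher at an unadjusted p under 0.05 and 0 lower. Over all features of that fit the shares were 4.27% and 4.23%. Of the 83 probes, 0 passed the adjusted test.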

How the data were processed

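For 6 samples of mouse T-ALL, grouped by their titles as 3 WT and 3 KO, RNA was amplified from 10 ng, biotin-labelled and read on Illumina bead arrays, per the labels' protocols. The deposited table holds, for each array and each of 45281 probes, a detection p-value and an intensity on a linear scale, per the file headers; judging by the values, neither background subtraction nor normalization had been applied. A second deposited table holds the authors' log2 values, which equalled quantile-normalized log2 intensities within 5e-05, with a median of 7.202 on every array, so its scale and direction are settled and its genes are not centred. No scanner or summary software is given in the sources used here.

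Intensities were processed with neqc (offset 16) in limma 3.58.1 under R 4.3.3, which corrects background from the detection p-values, quantile-normalizes and takes log2, so that a shift of most genes one way could not be seen. Symbols came from the platform annotation: 34885 probes had 1, 18 several and 10378 none here, and 34807 matched RefSeq (GRCm38.p6) with 0 changes. KO was compared with WT by lmFit and eBayes over 11241 features without covariates, with Benjamini-Hochberg adjustment, and the step was tested on simulated data. The number of arrays limits the precision.

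The members and lists were chosen with earlier results of these data known, so no list was tested and counts stand beside those of all features. Values were named for all TRiC subunits, for a fixed set of well-known members, for the up to 4 members of each role with the smallest p, and for up to 3 genes of each related list. Members that stood out by overlap, level of detection or probes, such as Hspa2, Dnaja1, Dnajc19 and several Dnajc genes, were named after their values were seen. Alternatives changed the background correction, normalization, starting table, detection filter, probe choice, replicate block, array weights, prior and each array in turn.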

Additional observations from a re-analysis of the deposited data

How the results depend on the processing

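No member passed the adjusted test under any of the 18 alternatives (0 in each), and the smallest adjusted p ranged from 0.258 with array weights to 0.814 without WT replicate 3. At an unadjusted p under 0.05, 1 member measured lower and 1 higher without background correction and in the authors' log2 table. All features had 4.44% and 4.88% in both. Median scaling also gave 1 and 1, beside 7.18% and 2.70% of all features. Without a detection filter 1 of 82 measured lower and 3 higher (Dnajb2, Hspa12b and Hspb3), beside 3.59% and 3.82%. A trended robust prior gave 1 lower and 2 higher, beside 4.41% and 5.12%. Detection p under 0.01 on all arrays gave 0 lower and 1 higher of 48, beside 4.46% and 4.82%. With array weights 2 measured lower (Dnajc28 and Hspb6) and 0 higher, beside 6.84% and 8.45% of all features. Leaving out each array gave 0 to 4 lower and 0 to 4 higher, the most without KO replicate 3. Over all features these fits gave 2.49% to 4.93% lower and 3.18% to 6.5% higher. Correlations of same-numbered deviations were -0.0977, -0.272 and 0.150, and not every sample correlated best with its own number. With 3 samples a group, these values cannot settle whether the replicate numbers pair the samples. With the replicate block, 2 measured lower (Dnajc15 and Hspe1) and 0 higher, beside 3.99% and 4.74% of all features.

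The median change was -0.1598 with median scaling, 0.01205 with array weights and -0.08311 to -0.002417 without single arrays. Of 39 members followed, 23 kept their sign in every alternative in which they could be read. Median scaling gave Bag3 -0.02179, Cct2 -0.01253, Cct3 -0.06367, Hspa8 -0.04391, Hspa9 -0.07954, Hspd1 -0.09061 and Hsph1 -0.01422. The mean of a gene's probes gave Cct3 -0.03047, Hspa8 -0.1665 and Hspd1 -0.1674. Array weights gave Cct5 0.1994, Dnajb1 0.03593, Dnajb4 0.01646, Hsf2 0.01072, Hsp90aa1 0.01904 and Hspa4 0.1561. Leaving out single arrays gave Bag5 -0.1904 to 0.004992, Cct2 -0.08233 to 0.1832, Cct3 -0.01856 to 0.1036, Cct7 -0.132 to 0.2195, Dnajb1 -0.08761 to 0.06065, Dnajb4 -0.3411 to 0.005481, Hsf2 -0.284 to 0.09845, Hspa4 -0.1912 to 0.2269, Hspa8 -0.006506 to 0.07158, Hspd1 -0.04898 to 0.1137 and Stip1 -0.1009 to 0.06671. The cause was not tested. Signal over background limits dim members: Cct5, detected on 1 KO array, had the widest interval of the 58. With 3 samples a group, an exact permutation test of 1 gene cannot go below p 0.10.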
